A study of Mus musculus with 128 samples.

Results

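The genes described here are the nuclear genes that encode the subunits of respiratory complexes III, IV and V of mitochondria. They were chosen by symbol and by a minimum level. Symbols that start with Uqcr, Cox4 to Cox8 or Atp5, and the symbol Cyc1, were taken without pseudogene (-ps) symbols, and a mean normalised read count of 10 or more was required in at least 1 tissue. Of 45 candidate symbols 43 met the rule, out of 55285 symbols in the tables: 9 of complex III, 17 of complex IV and 17 of complex V. Just inside the threshold were Cox6c2 and Cox6b2, with highest tissue means of 34.0 and 109.4, and just outside were Cox7b2 at 1.78 and Cox8c at 0. RefSeq lists Cox6c2 as a pseudogene, but its symbol holds no -ps, so the rule kept it. The 12 pseudogene symbols left out were low: the highest, Atp5pb-ps in Heart, held 1.04% of the value of its parent gene.

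RNA was sequenced from 8 tissues (Brain, Liver, Kidney, Heart, Aorta, Lung, Skin and gastrocnemius Muscle) at 6, 15, 24 and 30 months of age, with 4 libraries in each of the 32 groups. The animals were untreated wild-type males of the C57BL/6J strain, and 6 months is the reference age in each comparison. The records of the Aorta libraries give tissue, genotype and treatment only, so their age comes from the title and their sex and strain from the description of the whole series. The labels do not say that the 4 libraries of a group come from separate animals, so every p-value measures the spread between these libraries. In whole-tissue RNA, fewer cells of a type and less RNA per cell cannot be told apart.

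Complex III passes electrons from ubiquinol to cytochrome c, complex IV passes them from cytochrome c to oxygen, and both pump protons across the inner mitochondrial membrane. Complex V, the ATP synthase, lets the protons flow back and makes ATP. A few core subunits are encoded in mitochondrial DNA and the rest in the nucleus. In complex IV, subunits 4, 6A, 6B, 7A and 8 each exist as a widespread form and as a form tied to particular tissues: Cox6a2, Cox7a1 and Cox8b are the forms of heart and skeletal muscle, Cox4i2 is the lung form, and Cox6b2 was described in testis.

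Promoters of 7 genes on which the results below turn are shown, from RefSeq on GRCm38.p6, as the 250 bases before the gene start, 5′ to 3′ on the coding strand. The deposited tables themselves were made on GRCm39. The promoter table used here held 32 of the 43 genes. Cox8b and Cox7a1 are the muscle forms and Cox8a and Cox7a2 their widespread partners, shown so that each pair can be compared. Cox6b1, Atp5k and Uqcr11 are examples of genes with large changes in Liver or Brain. Others with falls of similar size, such as Cox5b and Uqcrc2 in Liver, are not shown. Capitals mark a searched motif.
Cox8b, chr7:140900447-140900696, minus strand: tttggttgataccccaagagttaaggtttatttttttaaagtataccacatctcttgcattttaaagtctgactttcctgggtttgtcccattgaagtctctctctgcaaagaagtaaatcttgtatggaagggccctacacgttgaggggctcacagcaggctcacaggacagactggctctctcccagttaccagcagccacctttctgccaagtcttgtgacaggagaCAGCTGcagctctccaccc
Cox8a, chr19:7217617-7217866, minus strand: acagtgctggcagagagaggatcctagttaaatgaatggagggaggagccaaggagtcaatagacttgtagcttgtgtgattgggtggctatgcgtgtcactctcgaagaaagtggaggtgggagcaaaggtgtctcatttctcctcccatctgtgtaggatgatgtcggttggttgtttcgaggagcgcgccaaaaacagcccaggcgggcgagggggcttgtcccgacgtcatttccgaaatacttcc
Cox7a1, chr7:30183921-30184170, plus strand: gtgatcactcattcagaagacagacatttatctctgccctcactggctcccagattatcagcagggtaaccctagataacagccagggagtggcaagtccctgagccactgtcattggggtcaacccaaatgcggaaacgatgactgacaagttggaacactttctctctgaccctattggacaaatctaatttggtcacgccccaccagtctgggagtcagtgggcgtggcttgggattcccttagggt
Cox7a2, chr9:79759854-79760103, minus strand: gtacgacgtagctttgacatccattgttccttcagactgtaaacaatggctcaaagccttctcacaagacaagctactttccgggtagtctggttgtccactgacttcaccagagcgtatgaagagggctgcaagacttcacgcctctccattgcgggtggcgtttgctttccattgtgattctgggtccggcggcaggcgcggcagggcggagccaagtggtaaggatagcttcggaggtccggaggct
Cox6b1, chr7:30626115-30626364, minus strand: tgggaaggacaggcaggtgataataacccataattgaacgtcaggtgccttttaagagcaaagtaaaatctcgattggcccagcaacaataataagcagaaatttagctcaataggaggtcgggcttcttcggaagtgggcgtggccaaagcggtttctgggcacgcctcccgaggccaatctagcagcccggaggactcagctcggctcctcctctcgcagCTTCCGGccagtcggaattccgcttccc
Atp5k, chr5:108434400-108434649, minus strand: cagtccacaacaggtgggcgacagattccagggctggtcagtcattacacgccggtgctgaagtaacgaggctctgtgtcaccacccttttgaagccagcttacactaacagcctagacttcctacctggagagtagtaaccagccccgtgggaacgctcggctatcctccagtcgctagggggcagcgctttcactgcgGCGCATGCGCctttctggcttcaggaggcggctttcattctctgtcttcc
Uqcr11, chr10:80406822-80407071, minus strand: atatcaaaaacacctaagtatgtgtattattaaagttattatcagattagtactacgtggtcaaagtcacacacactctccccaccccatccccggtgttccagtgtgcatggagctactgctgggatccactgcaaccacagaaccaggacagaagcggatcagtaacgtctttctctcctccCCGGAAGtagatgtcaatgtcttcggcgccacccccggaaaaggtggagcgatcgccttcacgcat
The motifs were searched on both strands of the same window in all 32851 RefSeq promoters. The ETS letters CCGGAAG, the core bound by GABP among other factors, occur in 8 of the 32 genes (25%) and in 6.91% of all promoters. In Cox6b1 they start 28 bases before the gene start, on the opposite strand, and in Uqcr11 66 bases before it. The NRF1 motif (GCGCA and GCGC with any 1 base between) occurs in 5 of 32 (15.6%, against 3.74%), among them Atp5k, 50 bases before the start. TCAAGGTCA, bound by the oestrogen-related receptors, occurs in Atp5g3 (1 of 32, 3.12%, against 0.387%), and AANATGGCG, bound by YY1, in Atp5j (1 of 32, against 1.12%). The E-box CAGCTG, bound by myogenic factors, occurs in Cox8b, 19 bases before the start, and in Atp5b (2 of 32, 6.25%, against 13.0%). TATAAA occurs in 2 of 32 (against 12.4%) and the MEF2 motif in 0 of 32 (against 2.92%). Cox8a, Cox7a1 and Cox7a2 have none of these letters in the window. In the 21263 promoters of protein-coding genes alone, the ETS letters occur in 8.98% and the NRF1 motif in 5.18%. There the oestrogen-related receptor letters occur in 0.32%, those of YY1 in 1.34% and the E-box in 12.1%. TATAAA occurs in 11.6% of them and the MEF2 motif in 2.61%. A match describes the sequence and is not evidence of binding. Whether genes with a motif changed differently with age was not tested.

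The libraries held 7647585 to 82801330 reads, summed over genes. Every library had all 5 markers of its labelled tissue, and each marker list was highest in its own tissue in 8 of 8 cases. A Heart library at 24 months, replicate 4, stood apart, with the fewest reads, 40.6% of them from mitochondrial DNA, and a median rank correlation of 0.898 with the other Heart libraries. Less far apart were Liver at 30 months, replicate 3 (0.935), several Skin libraries (lowest 0.953) and Aorta at 6 months, replicate 3 (0.960). The counts of called genes in Heart, Liver, Aorta and Skin are given below with and without them.

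At 6 months the 43 genes together took 2.28% ± 0.40 (SD, n = 4) of all reads in Aorta and 2.08% ± 0.040 in Heart, against 1.42% ± 0.028 in Muscle and 1.19% ± 0.011 in Kidney. The share was 0.714% ± 0.025 in Liver, 0.693% ± 0.091 in Skin and 0.644% ± 0.037 in Brain, and it was lowest in Lung at 0.376% ± 0.025. Aorta and Heart lie closer together than the Aorta libraries lie to each other, and the Skin libraries overlap those of both Liver and Brain. The level in RPM (reads scaled to a common total per library) was highest in Aorta for 24 genes, in Heart for 15, in Lung for Cox4i2 and Cox6b2, in Muscle for Atp5g2 and in Skin for Cox7a2l. Left aside here were the tissue forms Cox4i2, Cox6a2, Cox6b2, Cox7a1 and Cox8b, and the low Cox6c2. Among the other 37 genes the highest tissue stood 2.73 to 34.3 times above the lowest, with a median of 7.0. Levels between tissues are on the RPM scale, which includes mitochondrial reads, since the tables were normalised tissue by tissue.

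Tissue forms and widespread forms of complex IV were compared as shares of the pair, after dividing each value by its annotated mRNA length. In Muscle at 6 months Cox6a2 made up 96.9% ± 0.22 (SD, n = 4) of subunit 6A and Cox8b 94.7% ± 0.58 of subunit 8. Cox7a1 made up 64.1% ± 0.71 of subunit 7A there. Heart had 95.6% ± 0.38 Cox6a2, 87.2% ± 0.53 Cox8b and 74.8% ± 0.92 Cox7a1. So the muscle form was almost the whole of subunit 6A in both, while the widespread Cox7a2 kept a large share of subunit 7A. Muscle had the lower share of Cox7a1 and the higher share of Cox8b of the pair of tissues, and the library ranges did not overlap. Lung was the only tissue with an appreciable share of Cox4i2, 22.6% ± 2.2 of subunit 4, while the shares in the other 7 tissues lay at or below 0.994% ± 0.25, the value in Skin. Cox6b2 made up 7.95% ± 0.26 of subunit 6B in Lung and 1.69% ± 0.16 in Skin, the next highest.

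**Figure D1:**
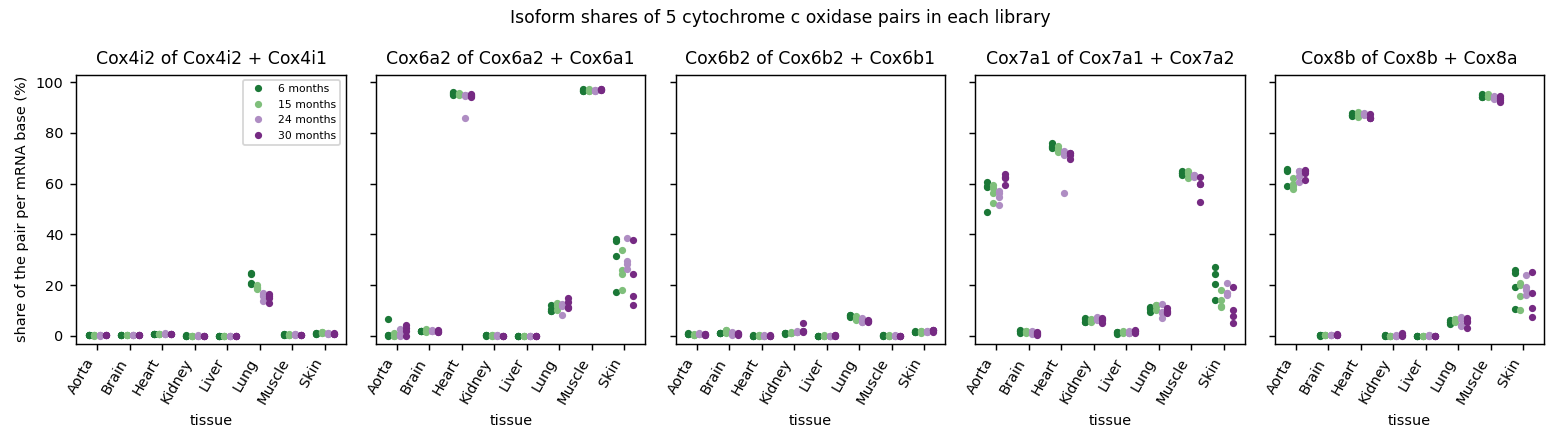
Share of the tissue form in each pair of complex IV subunits (percent, per base of annotated mRNA) in the 8 tissues by age, 1 point per library. The muscle forms of subunits 6A, 7A and 8 lead in Heart and Muscle, Cox7a1 and Cox8b also in Aorta, and Cox4i2 is seen mainly in Lung, where its share was lower at 30 months.

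Aorta carried the muscle forms of subunits 7A and 8 without that of subunit 6A. Cox8b made up 63.9% ± 3.2 and Cox7a1 56.9% ± 5.4 of their pairs at 6 months, but Cox6a2 made up 6.67% at most in a library. Markers of brown fat, in which Cox7a1 and Cox8b are also known to be expressed, were high there: 8 markers summed to normalised read counts of 63873 to 142685 at 6 months, with Ucp1, the uncoupling protein of brown fat, at 25250.0 to 81101, and Zic1 listed at 0. Atp5g1, 1 of 3 genes for the c-ring subunit, was chosen after its values were seen: it was lower in Aorta (25.6 ± 18 RPM) than in Heart (639 ± 28). Atp5a1, for the catalytic head, was 2186 ± 299 in Aorta and 2419 ± 59 in Heart on the same scale. The normalised read counts of Atp5g1 in Aorta were 268, 318, 853 and 283, highest in replicate 3. That library also had the highest Cox6a2 and cardiomyocyte markers. Cox6a2 was 1.33, 28.6, 723 and 33.4 at 6 months and 564, 277, 704 and 0 at 30 months, beside sums of 8 cardiomyocyte markers of 178, 824, 42010.3 and 1074 and 23186, 10616, 26139.5 and 535. The library with the highest marker sum had the highest Cox6a2 at each of these ages, and both ages hold libraries with high and with low values. The part of brown fat and heart cells in the levels of Aorta was not tested.

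In Skin the muscle forms varied between libraries beside markers of skeletal muscle. Cox6a2 had normalised read counts of 1132, 449, 1541 and 1185 at 6 months and 1234, 706, 387 and 241 at 30 months. The sums of 10 markers of fast muscle fibres were 160226, 50572, 146806 and 120777 and 129663, 78789, 39916 and 27908. In both groups the library with the lowest marker sum also had the lowest Cox6a2, and the groups overlapped in both measures. The part of the muscle fibres was not tested.

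**Figure D2:**
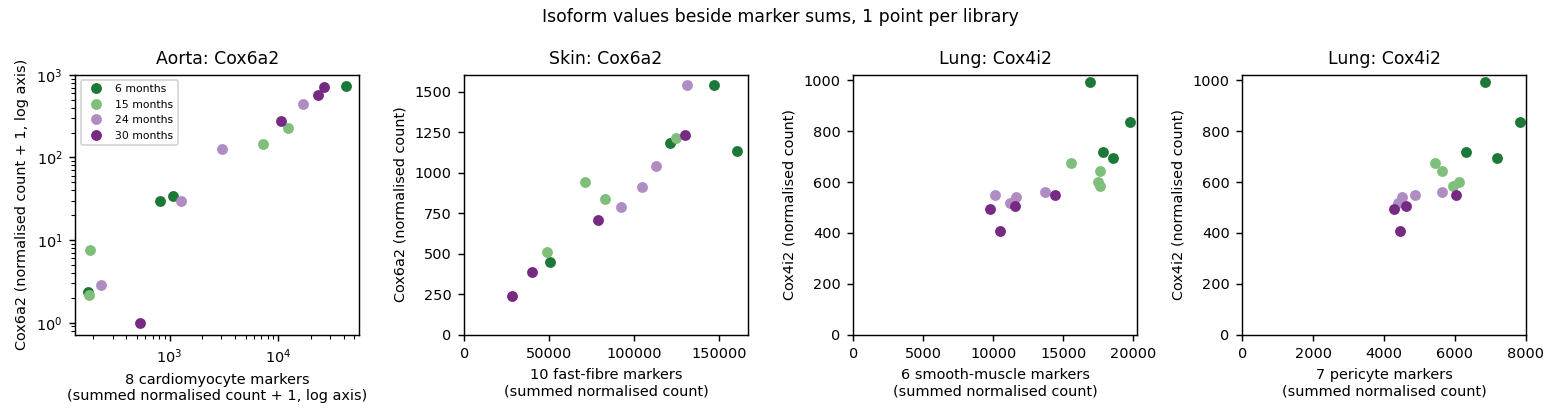
Normalised read counts of Cox6a2 in Aorta and Skin and of Cox4i2 in Lung (vertical axes) against the summed counts of marker genes of cardiomyocytes, fast fibres, smooth muscle and pericytes (horizontal axes), 1 point per library, coloured by age. The Aorta panel has log axes; the libraries with high marker sums also have high Cox6a2, at every age.

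Changes with age were tested within each tissue by limma-trend on log2(normalised read count + 1), over all genes that passed the filter on low values. At 30 against 6 months the count of genes that fell was 31 of 38 tested in Liver, where 10.3% of all tested genes fell. It was 13 of 42 in Brain (3.97% of all genes), 15 of 41 in Kidney (14.1%), 6 of 43 in Muscle (6.93%) and 3 of 42 in Lung (8.64%). None fell in Aorta (2.55%), Heart (1.04%) or Skin (0.557%). Only 2 genes rose anywhere: Uqcrfs1 in Aorta (3.04% of all genes rose) and Cox6b2 in Kidney (14.1%). The median log2 change over the tested genes was -0.39 in Liver, -0.16 in Brain, -0.13 in Kidney, -0.13 in Heart, -0.11 in Muscle, -0.07 in Skin, -0.06 in Lung and 0.23 in Aorta. The median over all genes tested lay between -0.011 and 0.008. The share of genes that fell was near the background in Lung. In Liver and Brain it was above the background, also without any 1 library. In Kidney and Muscle it was above, but not in every leave-out: without the 30-month replicates 3 and 4 of Kidney, 3 of 42 fell (7.14%, against 7.56% of all genes), and without the 6-month replicate 2 or 3 of Muscle, 1 of 43 fell (2.33%, against 3.72% and 4.05%).

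**Figure D3:**
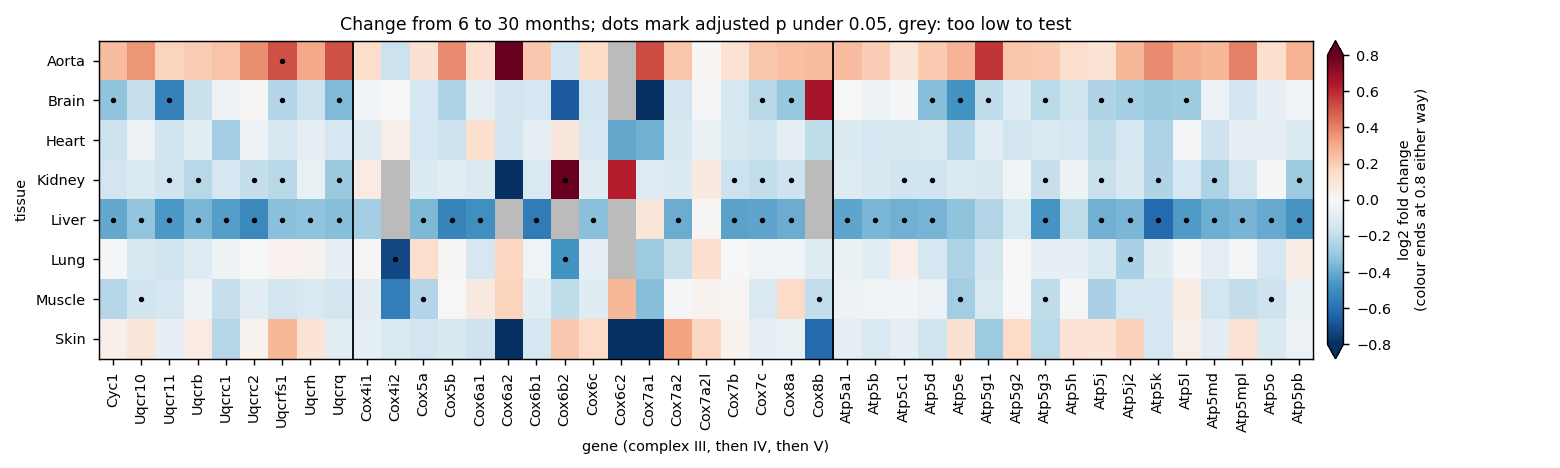
Log2 change from 6 to 30 months of each of the 43 genes (columns, by complex) in the 8 tissues (rows), on a colour scale that ends at 0.8 either way, with dots at an adjusted p under 0.05 and genes too low to test in grey. Liver is blue, that is lower, over nearly all genes, with 31 of 38 called, and Aorta is mostly on the higher side with 1 call.

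In Liver all 9 genes of complex III fell, with 9 of 12 of complex IV and 13 of 17 of complex V. The genes with the largest falls came from all 3 complexes. Atp5k, subunit e at the membrane part of the ATP synthase, had normalised read counts of 1231, 1192, 1094 and 1226 at 6 months and 852, 795, 623 and 831 at 30 months (log2 change -0.62 ± 0.14 SE, adjusted p = 0.00493). Cox6b1, a subunit on the side of complex IV that faces cytochrome c, had 3513, 3083, 3335 and 4037 and 2515, 2452, 2001 and 2519 (-0.56 ± 0.13 SE, adjusted p = 0.00557). Cox5b had 2750.3, 2720.4, 3059 and 3284 and 2088, 2285, 1775 and 2016 (-0.53 ± 0.10 SE, adjusted p = 0.00181). In each of these genes every 30-month library lay below every 6-month library, with replicate 3 the lowest at 30 months. Among the core genes of complex III, Uqcrc2 had 5145, 4990.0, 5182 and 5608 and 3885, 3503, 3247 and 4029, again without overlap (-0.52 ± 0.08 SE, adjusted p = 0.000478). The Rieske iron-sulphur protein gene Uqcrfs1 changed by -0.33 (adjusted p = 0.0105), Uqcrc1 by -0.44 (adjusted p = 0.00168), and Cyc1, which encodes cytochrome c1, by -0.41 (adjusted p = 0.00701), all on the log2 scale. Genes for the catalytic head and the rotating stalk of the ATP synthase also fell. Atp5a1 (subunit alpha) changed by -0.42 (adjusted p = 0.00375), Atp5b (beta) by -0.37 (adjusted p = 0.00593), and Atp5c1 (gamma, the rotating stalk) by -0.38 (adjusted p = 0.00292). In complex IV, Cox5a changed by -0.36 (adjusted p = 0.0121), Cox6a1 by -0.49 (adjusted p = 0.0026), Cox7a2 by -0.40 (adjusted p = 0.0338), Cox7b by -0.43 (adjusted p = 0.0013) and Cox8a by -0.40 (adjusted p = 0.00588).

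The 7 tested genes that did not pass in Liver include Cox4i1, the widespread subunit 4, at -0.27 (adjusted p = 0.0594), whose libraries did not overlap all the same. Cox7a2l, which takes part in joining complexes III and IV into supercomplexes, had a log2 change of 0.01 (adjusted p = 0.956), and Cox7a1 had 0.10 (adjusted p = 0.851). The others were Atp5e at -0.32, Atp5g1 at -0.24, Atp5h at -0.20 and Atp5g2 at -0.12. In all, 32 of 38 genes had no overlap between 6 and 30 months in the lower direction, against 12.3% of all genes. The 43 genes took 0.630% ± 0.029 (SD, n = 4) of all reads at 30 months, below the 6-month share given above. That fall was smaller than the median log2 change of -0.39, so the sizes given are sizes on the authors' normalised scale. Without the 30-month replicate 3, which stood apart, 29 of 38 fell.

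Liver also had the most calls at the younger ages. At 15 against 6 months 4 genes fell, when 0.503% of all genes did: Cox6b1 (-0.56), Atp5md (-0.42), Atp5l (-0.39) and Cox7b (-0.37, log2). These calls rested on single libraries: none was left without any 1 of the 6-month libraries or without the 15-month replicate 2 or 4, 2 were left without the 24-month replicate 3 or 4, and 13 genes fell (2.57% of all genes) without the 30-month replicate 3, the library that stood apart. At 24 months 22 genes of Liver fell (3.66% of all genes). The count was 7 (1.57% of all genes) without the 24-month replicate 1, 12 without the 24-month replicate 4, 13, 13 and 11 without the 6-month replicates 1, 3 and 4, and 28 (7.25%) without the 30-month replicate 3. The share that fell was above that of all genes in each of the 16 leave-out runs. Of these 22, 19 also fell at 30 months (86.4% of the 22 and 61.3% of the 31). The comparisons share the 6-month libraries. Uqcrc2 had normalised read counts of 4301, 4206, 4203 and 4314 at 15 months and 4045, 4364, 4428 and 4035 at 24 months, between the values at 6 and 30 months, all below 6 months. Atp5k had 833, 879, 1112 and 624 and 785, 825, 913 and 869, a wide spread at 15 months. The median over the tested genes in single libraries lay at -0.09 to 0.14 at 6 months, -0.26 to -0.15 at 15, -0.49 to -0.21 at 24 and -0.47 to -0.24 at 30 months, as log2 difference from the 6-month mean.

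**Figure D4:**
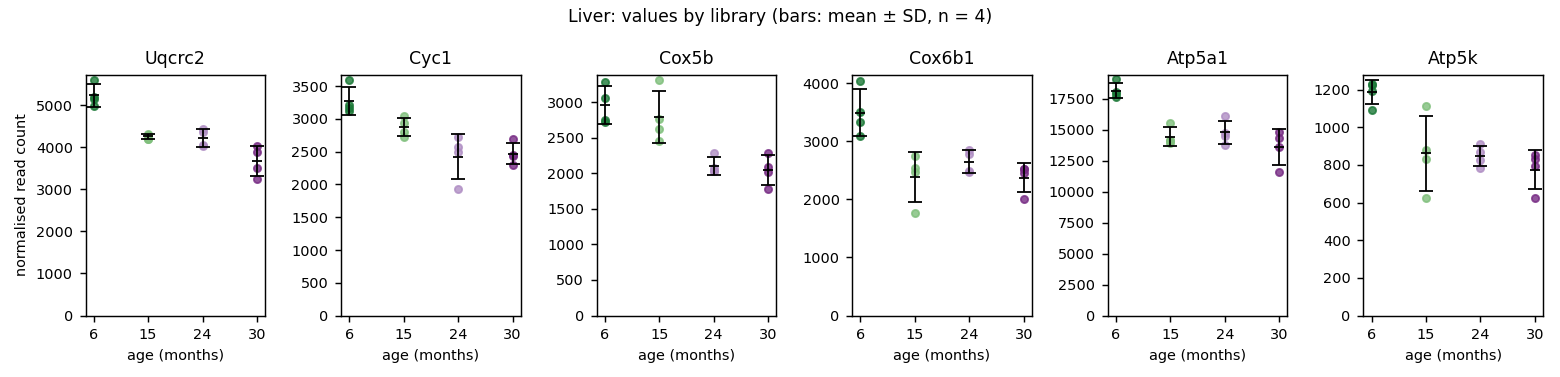
Normalised read counts of 6 genes in Liver at 6, 15, 24 and 30 months, 1 point per library, with mean and SD (n = 4). Uqcrc2, Cyc1 and Atp5a1 were already below the 6-month libraries at 15 months, Cox5b at 15 months was not.

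In the same Liver libraries all 8 macrophage markers and all 8 lymphocyte markers rose, when 13.6% of all genes did. The macrophage markers summed to 4823 to 7215 at 6 months and 11326 to 34016 at 30 months, the lymphocyte markers to 138 to 223 and 1715 to 2679.7, and none of these markers was at 0. Of 6 fibroblast markers 4 rose. The summed level of 5 liver markers overlapped between the ages. The part of these cells in the lower values was not tested.

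In Brain 4 genes of complex III, 2 of complex IV and 7 of complex V fell by 30 months, and none rose. The largest fall was that of Uqcr11, a small subunit of complex III, with normalised read counts of 1348, 1266, 1360.3 and 1226 at 6 months and 968, 1019, 729 and 883 at 30 months (log2 change -0.54 ± 0.09 SE, adjusted p = 0.000663). Atp5e, subunit epsilon of the ATP synthase, had 886, 795, 885 and 773 and 625, 681, 509 and 585 (-0.48 ± 0.09 SE, adjusted p = 0.00193). Uqcrq, another small subunit of complex III, had 1489.5, 1421, 1536 and 1409 and 1216, 1257, 1046 and 1084 (-0.35 ± 0.06 SE, adjusted p = 0.00124). None of these 3 genes overlapped between the ages, and replicate 3 was the lowest of the 30-month libraries in all 3. The median over the tested genes was -0.06, -0.09, -0.26 and -0.24 in the 30-month libraries, as log2 difference from the 6-month mean. Replicates 1 and 2 thus lay within the range of the 6-month libraries, -0.10 to 0.09. Cyc1 had 2279, 2181, 2298 and 2229 and 1771, 1861, 1824 and 1740.0, the smallest adjusted p of the genes in Brain (-0.32 ± 0.04 SE, adjusted p = 0.000124). Uqcrfs1 fell by less (-0.23, adjusted p = 0.0143), as did Cox8a (-0.30, adjusted p = 0.00594). Atp5a1, for the catalytic head, had -0.01 (adjusted p = 0.958), Atp5b -0.04 (adjusted p = 0.62), Uqcrc1 -0.05 (adjusted p = 0.614) and Uqcrc2 0.01 (adjusted p = 0.958), none of which passed. The count of 13 was 8 without the 6-month replicate 1 or 3 or the 30-month replicate 4, and 7 of the 13 calls were lost in no alternative run. Beside this, 7 of 8 macrophage markers, which microglia share, rose (3.23% of all genes rose; sums 4190.4 to 4351 and 5417 to 6760.0); their part was not tested.

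In Kidney 15 genes fell, 5 of complex III, 3 of complex IV and 7 of complex V, and Cox6b2 rose. Cox6b2 had normalised read counts of 54.7, 51.4, 34.3 and 46.6 at 6 months and 85.7, 69.2, 188 and 76.9 at 30 months (log2 change 1.05 ± 0.26 SE, adjusted p = 0.0066). The groups did not overlap, but replicate 3 at 30 months was far above the other 3 libraries, and the gene made up only 2.62% ± 1.6 (SD, n = 4) of subunit 6B at 30 months. Uqcrq had 2902, 2683, 2742 and 2722 and 2562, 2221, 2009 and 2241 (-0.30 ± 0.06 SE, adjusted p = 0.00319), and Atp5pb, subunit b of the stator stalk, had 7143, 7069, 7641 and 7268 and 6371, 6114, 5286 and 6147 (-0.29 ± 0.06 SE, adjusted p = 0.00206). Atp5md, which holds ATP synthase dimers together, changed by -0.25 (adjusted p = 0.00814). These 3 genes did not overlap between ages. Uqcrfs1 (-0.22), Uqcrc2 (-0.19) and Atp5c1 (-0.16) also fell on the log2 scale. Uqcrq alone had fallen at 24 months (-0.22, 3.88% of all genes). Uqcrc1 (-0.14, adjusted p = 0.0569), Cox4i1 (0.07, adjusted p = 0.444) and Atp5b (-0.13, adjusted p = 0.128) did not pass.
The share of all reads taken by the 43 genes did not move the same way in Kidney: it was 1.19% ± 0.011 at 6 months and 1.21% ± 0.024 (SD, n = 4) at 30 months, so the falls are falls on the authors' normalised scale. In the same libraries 14.1% of all genes rose. Among them were 62 of 89 cytosolic ribosomal protein genes. Of the markers, 7 of 8 macrophage and 5 of 8 lymphocyte genes rose (lymphocyte sum 568 to 2176 at 6 months and 2872 to 38707 at 30 months). So did 4 of 7 adipocyte, 4 of 6 smooth muscle and 4 of 7 pericyte markers. The part of these genes and cells was not tested. The number of calls depended on single libraries: it was 6 without the 30-month replicate 3, and 8, 8 and 7 without the 6-month replicates 1, 2 and 3, each with the rise of Cox6b2. Without the 30-month replicate 3 the 5 falls were 11.9% of the tested genes of the complexes, against 11.3% of all genes.

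In Lung the genes that fell were the tissue forms Cox4i2 and Cox6b2 and 1 gene of complex V. Cox4i2 had normalised read counts of 994, 838, 720.1 and 697 at 6 months and 506, 408, 551 and 493 at 30 months (log2 change -0.72 ± 0.11 SE, adjusted p = 0.000433). It had fallen at 24 months too (-0.57 ± 0.11 SE, adjusted p = 0.00278), when 6.23% of all genes did. Its share of subunit 4 went from 24.3%, 24.7%, 20.6% and 20.8% to 15.6%, 13.0%, 16.4% and 14.8% in the 4 libraries of each age, without overlap. Cox6b2 had 146, 113, 125 and 132 and 92.1, 86.0, 100.3 and 90.3, also without overlap (-0.48 ± 0.11 SE, adjusted p = 0.00585). Atp5j2, subunit f of the ATP synthase, changed by -0.26 (adjusted p = 0.0287), with overlap. The widespread partners Cox4i1 (0.01, adjusted p = 0.942) and Cox6b1 (-0.03, adjusted p = 0.782) did not pass, and neither did any gene of complex III. Smooth muscle cells and pericytes, in which Cox4i2 is known to be expressed, had lower markers in the same libraries, where 8.64% of all genes fell. All 6 smooth muscle markers fell (sums 16936 to 19767 at 6 months and 9791 to 14406 at 30 months). Of 7 pericyte markers 4 fell and Rgs5 rose, when 10.7% of all genes rose (sums 6318 to 7824 and 4291 to 6034). The part of these cells in the change of Cox4i2 was not tested.

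In Muscle 6 genes fell. Atp5e had normalised read counts of 3306, 3499, 3467 and 3299 at 6 months and 2966, 2925, 2563 and 2749 at 30 months, without overlap (log2 change -0.28 ± 0.05 SE, adjusted p = 0.00351). It was also the only 1 of the 43 genes to fall at 24 months (-0.32, 0.612% of all genes). Cox5a had 5135, 5552, 5538 and 5266 and 4442, 4946, 4157 and 4746 (-0.23 ± 0.06 SE, adjusted p = 0.0155), and Atp5g3, a gene of the c-ring, changed by -0.21 (adjusted p = 0.0218). The muscle form Cox8b changed by -0.20 (adjusted p = 0.0494), Atp5o by -0.17 (adjusted p = 0.0497) and Uqcr10 by -0.16 (adjusted p = 0.0407). The other muscle forms did not pass: Cox7a1 had -0.34 (adjusted p = 0.0859) and Cox6a2 0.18 (adjusted p = 0.0682). Only the call of Atp5e was lost in no alternative setting. The share of all reads held by the 43 genes was 1.42% ± 0.028 at 6 months and 1.42% ± 0.064 (SD, n = 4) at 30 months. The count of 6 was 1 without the 6-month replicate 2 or 3, 3 without the 6-month replicate 1 or 4, the 15-month replicate 1, the 24-month replicate 1, 2 or 4 or the 30-month replicate 3, and 12 without the 30-month replicate 2. The share of the 43 genes that fell was above that of all genes in 14 of 16 leave-out runs. By edgeR 3 of 43 fell (6.98%, against 6.77% of all genes). In Muscle 51 of 88 cytosolic ribosomal protein genes rose, when 6.15% of all genes did.

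In Heart no gene passed at 30 months by limma-trend, edgeR or DESeq2 over all 4 ages, and 3 of 43 had an unadjusted p under 0.05. With the 6-month and 30-month libraries compared alone by limma-trend, 7 genes passed. The share of all genes that passed in that run is not given here. The groups nevertheless did not overlap, in the lower direction, in 12 of 43 genes, against 9.36% of all genes. Without the 24-month replicate 4, the library that stood apart and that enters the estimate of the spread, 10 genes fell at 30 months (6.96% of all genes) and 9 at 24 months (3.05%). These genes are named after their values were seen. Cox7a1 had normalised read counts of 6336, 6023, 6015 and 5979.9 at 6 months and 4320.2, 4805, 4806 and 4745 at 30 months, and its log2 change without that library was -0.38 ± 0.05 SE, adjusted p = 2.85e-05. Uqcrc1 had -0.28 ± 0.06 SE, adjusted p = 0.00549, Atp5e -0.23 ± 0.04 SE, adjusted p = 0.00191 and Atp5k -0.24 ± 0.05 SE, adjusted p = 0.00377, and the other 6 were Atp5j, Cox5b, Cox7c, Cox8b, Cyc1 and Uqcr11. All 8 macrophage markers rose in Heart (4.12% of all genes rose; sums 4151 to 4354 and 6189 to 11211), while the 8 cardiomyocyte markers summed to 514571 to 536749 and 447991 to 538181. Their part was not tested.

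Aorta had the only rise among the core genes. Uqcrfs1 had normalised read counts of 11058, 8624, 7486 and 12037 at 6 months and 14722, 12837, 13815 and 13436 at 30 months, without overlap (log2 change 0.51 ± 0.12 SE, adjusted p = 0.0258). Of the 42 tested genes 40 had a log2 change above 0, among them Uqcrc2 (0.37, adjusted p = 0.0539), Atp5pb (0.28, adjusted p = 0.0561) and Cox7a1 (0.52, adjusted p = 0.188), which did not pass. Without the 6-month replicate 3, no gene passed and the median log2 change was 0.06 in place of 0.23. That library had the lowest sum of brown fat markers, and the sums were 63873 to 142685 at 6 months and 120333 to 163953 at 30 months. Leaving out the 6-month replicate 2 or the 30-month replicate 1, 3 or 4 also ended the call of Uqcrfs1.

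In Skin no gene passed by limma-trend, edgeR or DESeq2, and 3 of 43 had an unadjusted p under 0.05. The largest differences were in the muscle forms and in Cox6c2, which RefSeq on GRCm38.p6 lists as a pseudogene: the log2 change was -1.23 (adjusted p = 0.214) for Cox6c2, -1.0 (adjusted p = 0.299) for Cox7a1, -0.88 (adjusted p = 0.429) for Cox6a2 and -0.62 (adjusted p = 0.628) for Cox8b. All 4 overlapped between the ages. Leaving out any 1 Skin library gave 0 calls too. The other genes lay between -0.29 (Atp5g1) and 0.32 (Cox7a2).

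**Figure D5:**
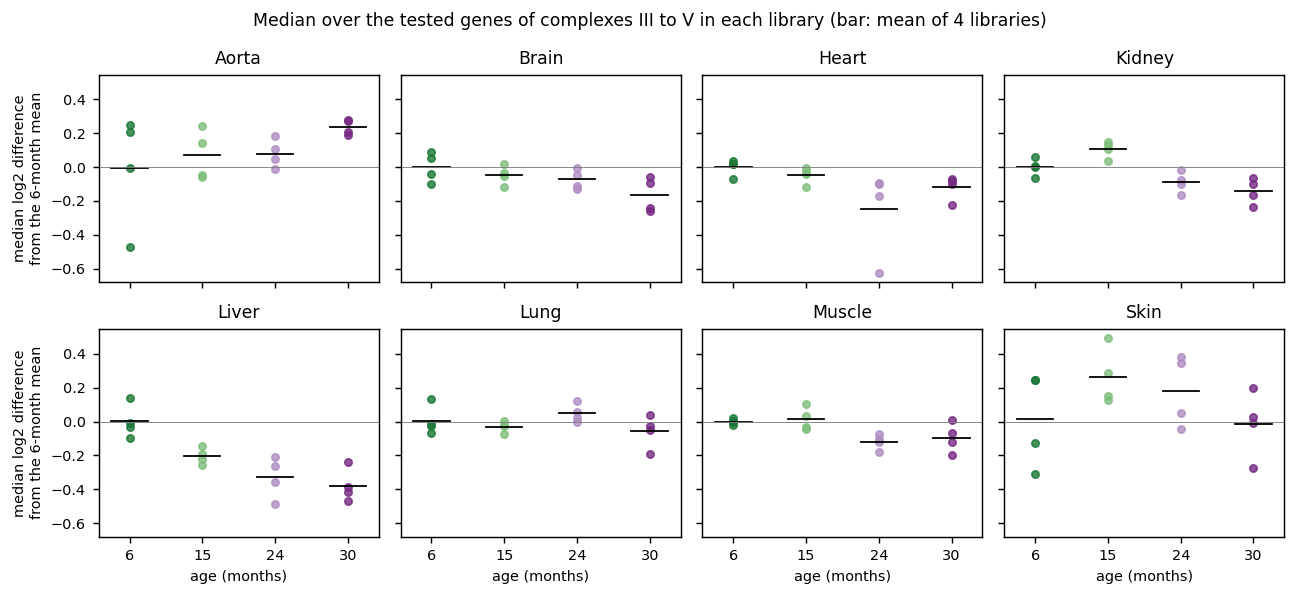
Median over the tested genes in each library, as log2 difference from the 6-month mean of its tissue, by age, with a bar at the mean of 4 libraries. Every Liver library at 15, 24 and 30 months lies below every one at 6 months, and 1 Heart library at 24 months and 1 Aorta library at 6 months lie far from the rest of their groups.

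The balance of tissue form and widespread form was tested directly, as log2 ratio within a library, at 30 against 6 months, in 35 pairs of genes and tissues. The exact two-sided permutation test of 4 against 4 libraries cannot go below p = 0.0286. That value was reached in 6 of 35 ratios: Cox4i2 over Cox4i1 in Lung (log2 difference -0.73), Cox6b2 over Cox6b1 in Lung (-0.44) and Kidney (1.17), Cox6a2 over Cox6a1 in Kidney (-0.77), and Cox7a1 over Cox7a2 in Heart (-0.26) and Muscle (-0.32). Cox6a2 was low in Kidney, with a mean normalised read count of 12.6 over all ages, against 5880 for Cox6a1. The ratio of Cox6b2 in Kidney includes the 30-month replicate 3, in which Cox6b2 was far above the other libraries. In Heart the share of Cox7a1 was 74.7%, 76.1%, 74.3% and 74.1% at 6 months and 69.9%, 71.4%, 71.9% and 72.1% at 30 months, and in Muscle 64.2%, 63.2%, 65.0% and 64.0% and 59.9%, 62.5%, 53.0% and 59.7%. The ages did not overlap in either tissue. After Benjamini-Hochberg adjustment over the 35 ratios none passed, and the smallest adjusted permutation p was 0.167. Most of the ratios would have had to reach the smallest possible p for any to pass.

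Across tissues, Atp5g3 was the gene that fell in most: Brain (-0.22), Kidney (-0.19), Liver (-0.47) and Muscle (-0.21, log2 change). Its calls in Brain and in Muscle were each lost in 4 of 24 alternatives, those in Kidney and Liver in none. Another 8 genes fell in 3 tissues (Atp5d, Atp5j, Atp5j2, Cox7c, Cox8a, Uqcr11, Uqcrfs1 and Uqcrq), 13 in 2 tissues, 14 in 1 and 7 in none. Among the 7 were Cox4i1 and Cox7a2l and the muscle forms Cox7a1 and Cox6a2, the last tested in 7 tissues only. These counts lean on Liver, where 31 of 38 tested genes fell. The share of all genes that fell in as many tissues is not given here.
The widespread forms of the complex IV subunits differed in how far they moved. Cox4i1 lay between -0.27 (Liver) and 0.14 (Aorta, log2 change) and Cox7a2l between -0.06 (Heart) and 0.17 (Skin), and neither passed in any tissue. Cox6a1 (-0.49), Cox6b1 (-0.56) and Cox7a2 (-0.40) passed in Liver alone, and in the other 7 tissues they lay between -0.18 (Cox7a2, Lung) and 0.32 (Cox7a2, Skin). Cox7b passed in Liver and Kidney, and Cox8a in Liver, Brain and Kidney. Of the tissue forms, Cox8b passed in Muscle, Cox4i2 in Lung and Cox6b2 in Lung and, in the other direction, in Kidney. Some differences of tissue forms did not pass: in Brain Cox7a1 had -1.08 (adjusted p = 0.116), Cox6b2 -0.67 (adjusted p = 0.277) and Cox8b 0.66 (adjusted p = 0.302). These genes were low in Brain, with mean normalised read counts of 12.2, 27.0 and 8.68 over all ages.
Whether the change from 6 to 30 months differed between the 8 tissues was tested by a limma-trend F test over the 11817 genes tested in all of them. It did for 28 of 38 genes, against 43.4% of all genes. With each tissue given its own spread, an alternative chosen after seeing the data, it did for 29 of 38 (50.3% of all genes), and 25 passed both. The smallest adjusted p-values of the F test, with its shared spread, were those of Uqcrc2 (1.4e-08), Uqcrfs1 (1.94e-08), Atp5pb (6.03e-06), Atp5a1 (6.74e-06) and Atp5c1 (0.00067). In all 5 the lowest change was in Liver and the highest in Aorta. For Uqcrc2 the log2 changes ran from -0.52 in Liver over -0.19 in Kidney, -0.09 in Muscle, -0.05 in Heart, -0.01 in Lung, 0.01 in Brain and 0.03 in Skin to 0.37 in Aorta. Without the 6-month replicate 3 of Aorta 20 of 38 genes passed (52.6%, against 41.1% of all genes).

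Other genes of the same machinery were counted in the same fits at 30 months. Of all genes, 10.3% fell in Liver, 14.1% in Kidney, 3.97% in Brain, 6.93% in Muscle and 8.64% in Lung. The share of all genes that rose was 3.04% in Aorta, 10.7% in Lung, 3.23% in Brain and 13.6% in Liver. Of the nuclear genes of complexes I and II, which feed electrons into complex III, 31 of 42 fell in Liver (median log2 change -0.37). The falls were 15 of 42 in Kidney, 11 in Brain, 6 in Muscle and 2 in Lung, and 2 of 41 rose in Aorta. The count in Lung was below the share of all genes, and that in Aorta was near it. Assembly factors of complex IV fell in 13 of 24 cases in Kidney and 10 of 23 in Liver, and 5 of 23 rose in Aorta (Taco1, Cox15, Cox10, Cox19 and Coa7). Assembly factors of complex III fell in 4 of 6 cases in Liver (Lyrm7, Ttc19, Uqcc1 and Uqcc2) and those of complex V in 3 of 6 (Atpaf2, Fmc1 and Tmem242). Of the mitochondrial ribosomal protein genes 36 of 78 fell in Liver, 29 in Kidney and 10 in Brain, and 8 rose in Aorta. The genes of complexes III to V in mitochondrial DNA did not always follow the nuclear ones: of 6, mt-Atp8 and mt-Cytb fell in Liver and mt-Atp6 and mt-Atp8 in Kidney, while mt-Co2 rose in Brain (log2 change 0.88, adjusted p = 0.00358) and mt-Atp6 and mt-Atp8 rose in Lung. Among 12 known regulators, in Liver Ppargc1a, the coactivator of mitochondrial genes, rose (0.73, adjusted p = 0.016) while Ppara (-0.56, adjusted p = 0.0419) and Tfb2m (-0.47, adjusted p = 0.00701) fell. In Kidney Esrra, Esrrg, Gabpa and Tfb2m fell, and in Lung Esrra and Esrrg rose. Of 9 carriers and related genes, Cycs, which encodes cytochrome c, fell in Liver (-0.41, adjusted p = 0.00224), Kidney and Muscle, and the ADP/ATP carrier gene Slc25a4 rose in Liver (0.83, adjusted p = 0.00535) and fell in Muscle (-0.26, adjusted p = 0.0097).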

How the data were processed

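RNA was measured by sequencing, with libraries made with the Illumina Stranded mRNA Prep kit per the labels' protocols. The genome build was GRCm39, and FastQC, STAR, RSEM and DESeq2 were used, per the submitters' processing notes. Tool versions and gene models are not given in the sources used here. For each tissue the authors deposited 1 table, in which the signal is a read count divided by a factor per library; 100% of the values came out as whole reads within 0.01. These recovered counts, from the values the authors deposited, gave depths and the edgeR and DESeq2 alternatives. The members and lists were chosen with earlier results of these data known. limma 3.58.1 (R 4.3.3) was fitted per tissue to log2(value + 1) with 1 mean per age over 16 libraries, after filterByExpr (edgeR 4.0.16, minimum count 10); p-values are two-sided, Benjamini-Hochberg adjusted over all genes tested in the tissue, with the threshold 0.05. The scripts were tested on simulated data, after which the F test between tissues was limited to genes tested in all 8. Genes named are the isoforms, 9 core genes, the 3 largest rises and falls per tissue and the 5 smallest F-test p-values; others are said to be chosen later, or are named as examples from the lists. Shares used mRNA lengths from GENCODE vM21 (GRCm38), which 42 of 43 genes have. Lower counts give wider intervals; they cover the spread between libraries only. DESeq2 1.42.0, Python 3.11.15, pandas 2.3.3, scipy 1.17.1 and matplotlib 3.10.9 were also used. Alternatives were other tools, scaling, pseudocounts of 0.1 and 5, no filter, ages compared alone, a replicate block and leaving out each library.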

Additional observations from a re-analysis of the deposited data

Results flagged for a closer look

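The normalised read count of Cox6b2 in Kidney at 30 months was 188.3 in replicate 3, far above the other 3 libraries of its group, 85.7, 69.2, 188 and 76.9 in order of replicate. Cox6b1 in Liver at 30 months was 2001 in replicate 3, far below the other libraries, 2515, 2452, 2001 and 2519 in order. Both gaps exceed Dixon's 95% critical value for 4 libraries, in 2 of 34 groups looked at, and chance marks about 1 in 20 such groups.

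The limma-trend F test asked whether tissues differed in the change between 6 and 30 months. Its 5 smallest Benjamini-Hochberg adjusted p-values were those of Uqcrc2 (1.4e-08), Uqcrfs1 (1.94e-08), Atp5pb (6.03e-06), Atp5a1 (6.74e-06) and Atp5c1 (0.00067). The order depended on the spread shared by all tissues. With each tissue given its own spread, in a Welch-type test, the adjusted p-values were 1.8e-05, 5.7e-05, 6.29e-06, 0.0101 and 0.00289. Atp5l (0.000295) and Cyc1 (0.00201) then came before Atp5a1 and Atp5c1. For Uqcrfs1 the log2 change was -0.33 in Liver and 0.51 in Aorta, for Atp5pb -0.47 and 0.28, for Atp5a1 -0.42 and 0.25, and for Atp5c1 -0.38 and 0.09.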

How the results depend on the processing

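Of the 70 calls at 30 months, 39 (25 in Liver, 7 in Brain, 4 in Kidney, 2 in Lung and 1 in Muscle) were lost in no alternative run, and none of the 70 changed direction. An alternative that gave a gene no adjusted p was counted as keeping its call. Counts moved by over 1.5 times as follows; the cause was not tested. DESeq2 gave 4 calls in Aorta (1 by limma-trend), 10 in Muscle (6) and 16 at 15 months over all tissues (4), and edgeR gave 3 in Muscle. Without a filter on low values the counts were 7 in Kidney (16), 2 in Muscle, 16 at 24 months over all tissues (25) and 2 at 15 months. With the ages compared alone they were 0 in Aorta, 7 in Heart (0), 5 in Kidney, 1 in Muscle, 44 at 24 months and 10 at 15 months. With a replicate block they were 3 in Muscle and 1 at 15 months. They were 30 in Liver (31), 12 in Brain (13) and 13 in Kidney with this block. Replicate numbers were taken not to pair the libraries, since some libraries with the same number correlated negatively in every tissue. However, 11 of 16 libraries in Brain and 10 in Muscle correlated best with one of their own number (2 to 6 elsewhere). A pairing in Brain and Muscle is therefore not excluded. Without the 30-month replicates 3 and 4 of Kidney together 4 calls were left. Leaving out single libraries gave 25 to 33 calls in Liver, 8 to 16 in Brain, 6 to 19 in Kidney, 1 to 12 in Muscle, 2 to 4 in Lung, 0 to 10 in Heart, 0 to 4 in Aorta, 0 in Skin, 10 to 34 at 24 months and 0 to 13 at 15 months. For the difference between tissues (28) it gave 20 to 30 genes, and other settings 24 to 29. Depth limits genes at low levels, such as Cox6c2 in every tissue and Cox8b in Brain, Kidney and Liver.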
